A study of Mus musculus with 19 samples.

Results

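Calcrl, which encodes the calcitonin receptor-like receptor, was described together with 9 genes known for their expression in endothelial cells: Ramp2, Pecam1, Cdh5, Kdr, Tek, Tie1, Emcn, Egfl7 and Esam. The 10 genes were taken by symbol from the 39017 genes of the count table. Calcrl was selected on its measured counts, which were higher at endpoint than at midpoint in both diets. Its changes with time and between diets are therefore given as descriptions, without a test. The question was whether it moved with the endothelial genes. Calcrl was higher at endpoint in both diets, whereas the other members that passed the test with time all fell. These were 4 of 8 tested in obese mice, where 73.9% of all genes tested passed and 36.1% fell, and 3 of 8 in lean mice, where 30.9% passed and 9.5% fell. Of the 4 in obese mice, Ramp2 and Tie1 did not pass once trends with GC content and length were corrected for. Of the 3 in lean mice, Esam did not pass with that correction. The lean call of Pecam1 was lost when any of 7 of the 18 libraries was left out. Within groups 0 of 9 members were correlated with Calcrl past the threshold.

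The RNA came from E0771, a line of mouse mammary carcinoma cells from the C57BL/6 strain, which carried the fluorescent protein mCherry. All groups had these cells implanted in the mammary fat pad of c57bl6 mice, and mCherry-positive cells were sorted from each dissociated tumor. The 4 groups were obese mice at endpoint, day 21 (5 libraries), lean mice at endpoint (4 libraries used), obese mice at midpoint, day 14 (5 libraries), and lean mice at midpoint (4 libraries). The sample titles name the obese groups HFD and the lean groups Chow; the age and sex of the mice were not given in the sources used here. The model is 1 cell line, and cells were sorted on mCherry fluorescence.

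The receptor encoded by Calcrl reaches the cell surface only with a small partner protein of the RAMP family. With the product of Ramp2 it binds adrenomedullin, a vasodilating peptide needed for normal blood and lymphatic vessels, and with the product of Ramp1 it binds calcitonin gene-related peptide. Both signal mainly through the stimulatory G protein encoded by Gnas. The other 8 genes serve endothelial cell contacts (Pecam1, Cdh5, Esam), growth factor and angiopoietin signalling (Kdr, Tek, Tie1), the cell surface coat (Emcn) and vessel formation (Egfl7).

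The 18 libraries compared held 44174080 to 56996252 counts. The fifth lean endpoint library, replicate 4, was left out, because its 11889188 counts stop within chromosome 5. Of the carcinoma's epithelial markers, Krt8 averaged 20.9 CPM (counts scaled to library size) in obese endpoint, 24.6 CPM in lean endpoint, 47.8 CPM in obese midpoint and 29.2 CPM in lean midpoint libraries, whereas Krt18, Epcam and Cdh1 were each at most 0.245 CPM in any library. The share of counts on mitochondrial genes was 17.1% to 24.4% in obese endpoint and 17.1% to 44.7% in lean endpoint libraries, against 5.80% to 8.06% in obese midpoint and 8.95% to 12.3% in lean midpoint libraries. The highest share belonged to lean endpoint replicate 1. P-values measure the spread between these libraries, which the study's design text describes as separate tumors. In RNA from a mixture of cells, fewer cells of a type and less RNA per cell cannot be told apart. Whether the sorted carcinoma cells or other cells carried the RNA of the genes described here was not tested.

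Promoter sequence is shown for Calcrl and for Egfl7, a member that fell at endpoint in both diets, to set the promoters of genes that moved in opposite directions side by side. RefSeq's promoter table (build GRCm38.p6) held 6 of the 10 genes. The windows are the 250 bases before a RefSeq start, and only the stretch outside the gene's counted exons is printed, 5′ to 3′ on the gene's strand. Calcrl lies on the minus strand and its stretch is chr2:84425412-84425516 (105 bases); Egfl7 lies on the plus strand, and the stretch before its start at base 26583865 is chr2:26583615-26583863 (249 bases). Capitals mark CAGGAA, or TTCCTG, its reverse complement. CAGGAA contains the GGAA core of sites bound by ETS factors and was chosen after the sequences had been seen.
Calcrl: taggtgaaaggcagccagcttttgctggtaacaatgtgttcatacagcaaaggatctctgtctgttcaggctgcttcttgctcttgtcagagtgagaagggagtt
Egfl7: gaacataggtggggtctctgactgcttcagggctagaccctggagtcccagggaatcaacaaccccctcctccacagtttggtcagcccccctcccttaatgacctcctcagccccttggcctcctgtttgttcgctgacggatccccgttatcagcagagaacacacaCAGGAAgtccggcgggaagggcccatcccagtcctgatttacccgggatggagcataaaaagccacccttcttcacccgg
The printed Calcrl stretch held no match and the printed Egfl7 stretch held 1. Over the whole 250 bases, which for Calcrl run into its first counted exon, there were 2 matches for Calcrl and 1 for this Egfl7 start. The table held 3 starts of Egfl7, with 2, 1 and 0 matches in order along the gene; the one shown has the longest stretch outside counted exons, against 223 and 244 bases for the others. Of 32851 promoters of this length, 25.7% held the motif on either strand. The GC content of the 250 bases was 48.4% for Calcrl and 58.4% for this Egfl7 start, beside a median of 52.4% over all promoters.

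Calcrl (ENSMUSG00000059588; mm10 chromosome 2, 84330626 to 84425411, minus strand) was nearly silent at midpoint and detected in every library at endpoint. Its level on TMM-scaled library sizes was 5.89, 2.42, 4.10, 7.72 and 6.98 CPM in the 5 obese endpoint libraries and 2.46, 0.994, 4.08 and 2.77 CPM in the 4 lean endpoint libraries. It was 0.306, 0, 0.146, 0.548 and 0 CPM in the 5 obese midpoint libraries and 0.370, 0.278, 0.245 and 0.378 CPM in the 4 lean midpoint libraries. Every endpoint library lay above every midpoint library, and 2 obese midpoint libraries had 0 counts, which allows up to 0.0695 and 0.0541 CPM (3 counts per library, counting error only).

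The means were 5.42 ± 2.16 CPM in obese endpoint (SD, n = 5), 2.58 ± 1.27 CPM in lean endpoint (SD, n = 4), 0.200 ± 0.232 CPM in obese midpoint (SD, n = 5) and 0.318 ± 0.0663 CPM in lean midpoint libraries (SD, n = 4). The endpoint mean was thus 27.1 times the midpoint mean in obese mice and 8.11 times in lean mice. The fitted log2 fold change was 4.70 ± 0.65 (SE) in obese mice and 3.02 ± 0.67 (SE) in lean mice, a difference of 1.68 ± 0.89 (SE); ± after any log2 fold change below is its SE. Under limma-voom with quality weights the obese value was 7.12 and the difference 3.98. These contrasts chose Calcrl, so no test is given. The midpoint values rest on 55 counts over 5 obese libraries and 76 counts over 4 lean libraries, against 1361 and 475 counts at endpoint.

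The transcript GC content of Calcrl was 37.5%, and 0.943% of the genes tested had a lower one, with a median of 50.2% over all. A correction of each library's trend with GC content and length brought the fold change to 2.13 in obese and 1.44 in lean mice on the log2 scale, a difference of 0.70. The sign was the same, and the values were smaller by more than 1.5 times. The part of this trend, and of the mitochondrial share that was also higher at endpoint, in the result was not tested. Without lean endpoint replicate 1 the uncorrected log2 fold changes were 4.73 in obese and 3.01 in lean mice.

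**Figure D1:**
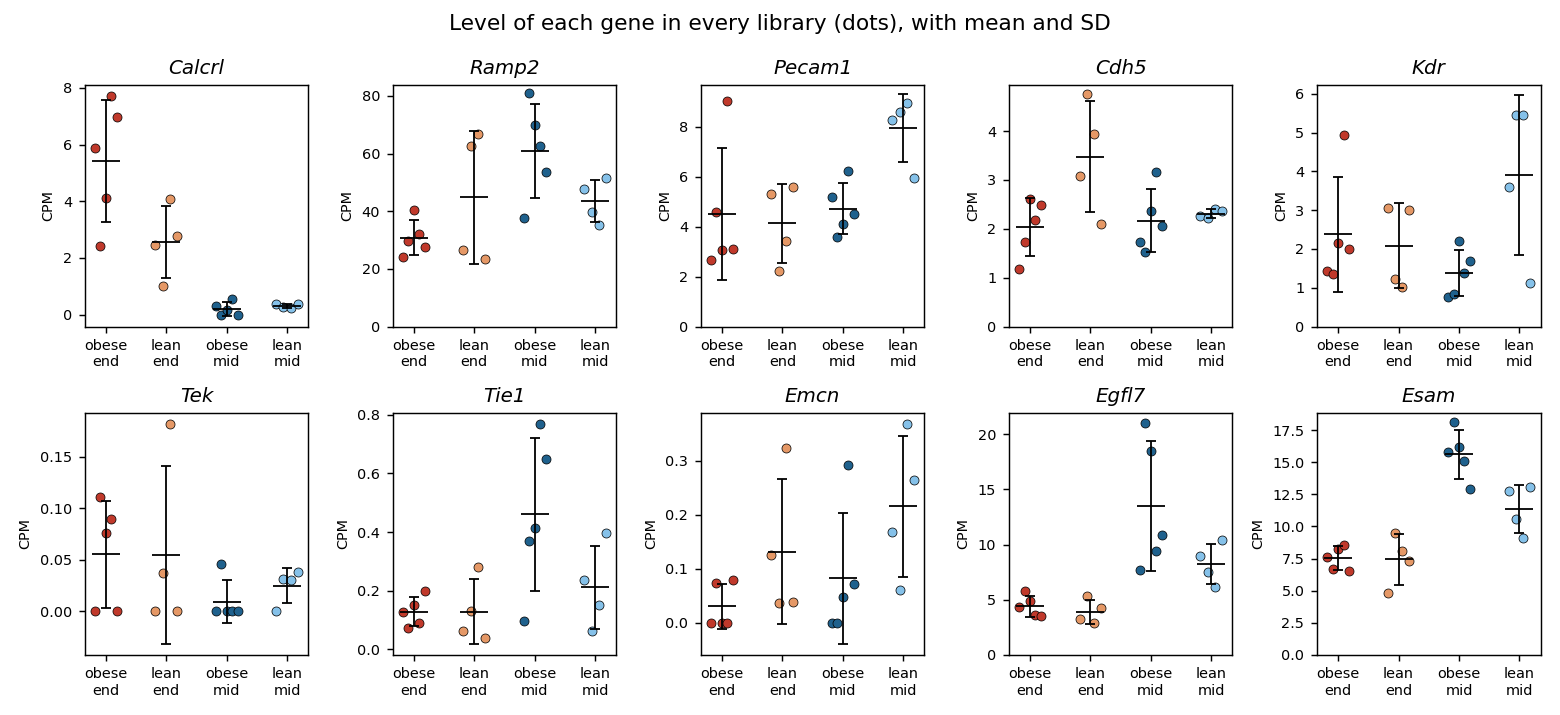
Level of each of the 10 genes in CPM (vertical axis, own scale per gene) in every library of the 4 groups; dots are libraries, the horizontal bar is the mean and the whiskers are the SD. Calcrl lies at 0.994 to 7.72 CPM in all endpoint libraries and at 0 to 0.548 CPM in all midpoint libraries, whereas Egfl7 is lower in the endpoint libraries of both diets.

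Ramp2 (ENSMUSG00000001240; chromosome 11, 101246028 to 101259546), the partner with which Calcrl forms the adrenomedullin receptor, had the highest level per kilobase of the 10 genes in all 4 groups, and did not follow Calcrl. It had 24.2, 29.7, 40.4, 32.2 and 27.6 CPM in obese endpoint and 26.4, 62.6, 66.9 and 23.4 CPM in lean endpoint libraries. It had 37.5, 80.8, 69.8, 62.7 and 53.6 CPM in obese midpoint and 47.8, 39.8, 35.3 and 51.5 CPM in lean midpoint libraries. The lean endpoint libraries fell into a high and a low pair, and the obese time groups overlapped. Ramp2 fell by 0.98 ± 0.27 on the log2 scale at endpoint in obese mice (adjusted p = 0.00304, quasi-likelihood test of edgeR, Benjamini-Hochberg adjustment over 16352 genes); in lean mice its log2 fold change was 0.04 ± 0.30 (adjusted p = 0.930). With the correction for GC content and length the change in obese mice was -0.17 (adjusted p = 0.513). Of its 3301 counted bases, 1103 are shared with exons of Vps25 on the same strand, so its counts are uncertain.

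At endpoint in obese mice, 4 of the 8 other members tested fell and 0 rose, against 73.9% of all genes tested called, 36.1% lower and 37.8% higher. The 4 were Ramp2, Egfl7, Esam and Tie1. The median log2 fold change of the 8 was -1.02, beside -0.0015 over all genes tested. Once GC content and length were corrected for, Ramp2 and Tie1 lost the call and Emcn gained it, which left Egfl7, Esam and Emcn; limma-voom also called Emcn (-2.25, adjusted p = 0.0268), beside the 4. In lean mice 3 of the 8 fell, namely Egfl7, Pecam1 and Esam, and 0 rose, against 30.9% of all genes called, 9.5% lower and 21.4% higher. The median of the 8 in lean mice was -0.68, beside 0.036 over all genes tested. With the correction for GC content and length, Esam lost the call in lean mice, which left Egfl7 and Pecam1. The ninth, Tek, had 0 to 9 counts in a library and did not pass the filter on low counts. The 2 contrasts share no library, although they share 1 estimate of the spread, and the 8 genes share every library within each.

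Pecam1 (ENSMUSG00000020717; chromosome 11, 106654217 to 106750628), an adhesion molecule of endothelial contacts, platelets and leukocytes, had 2.65, 4.59, 3.07, 9.04 and 3.12 CPM in obese endpoint libraries and 5.30, 2.23, 3.43 and 5.58 CPM in lean endpoint libraries. It had 5.19, 3.59, 4.10, 6.23 and 4.50 CPM in obese midpoint libraries and 8.26, 8.61, 8.96 and 5.95 CPM in lean midpoint libraries. The lean endpoint libraries all lay below the lean midpoint ones, and the obese groups overlapped. Pecam1 fell by 0.95 ± 0.35 at endpoint in lean mice on the log2 scale (edgeR adjusted p = 0.0456); this call was lost when any of 7 of the 18 libraries was left out, with adjusted p-values from 0.0123 to 0.113. Those 7 were lean midpoint replicates 1, 2 and 3, lean endpoint replicates 2 and 3, obese midpoint replicate 5 and obese endpoint replicate 2. In obese mice its log2 fold change was -0.07 ± 0.31 (edgeR adjusted p = 0.839).

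Cdh5 (ENSMUSG00000031871; chromosome 8, 104101625 to 104144502), the VE-cadherin of endothelial adherens junctions, averaged 2.04 ± 0.59 CPM in obese endpoint (SD, n = 5), 3.47 ± 1.14 CPM in lean endpoint (SD, n = 4), 2.17 ± 0.64 CPM in obese midpoint (SD, n = 5) and 2.31 ± 0.08 CPM in lean midpoint libraries (SD, n = 4). All 4 ranges overlapped with their neighbours in time and diet. Its log2 fold change with time was -0.09 ± 0.26 in obese mice and 0.59 ± 0.29 in lean mice (edgeR adjusted p = 0.766 and 0.118).

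Esam (ENSMUSG00000001946; chromosome 9, 37528078 to 37538319), an adhesion molecule of endothelial tight junctions, had 7.63, 6.70, 8.27, 8.55 and 6.56 CPM in obese endpoint and 4.82, 9.51, 8.07 and 7.32 CPM in lean endpoint libraries. It had 15.8, 18.2, 16.2, 15.1 and 12.9 CPM in obese midpoint and 12.8, 10.6, 9.13 and 13.1 CPM in lean midpoint libraries. In obese mice every endpoint library was below every midpoint library, and in lean mice the groups overlapped. Esam fell by 1.05 ± 0.18 in obese mice (edgeR adjusted p = 3.75e-05) and by 0.61 ± 0.20 in lean mice (edgeR adjusted p = 0.0272) on the log2 scale. The lean call was lost without lean midpoint replicate 1 or 4 or lean endpoint replicate 1 or 5 (adjusted p up to 0.0681), with only the lean groups in the fit (adjusted p = 0.0523) and once GC content and length were corrected for (log2 fold change -0.28, adjusted p = 0.227). In obese mice the corrected log2 fold change was -0.40 (adjusted p = 0.0268).

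Kdr (ENSMUSG00000062960; chromosome 5, 75932827 to 75978458), the main receptor through which VEGF-A acts on endothelial cells, had 1.44, 1.37, 2.16, 4.95 and 1.99 CPM in obese endpoint and 3.06, 1.24, 1.03 and 3.01 CPM in lean endpoint libraries. It had 0.774, 0.834, 2.20, 1.39 and 1.68 CPM in obese midpoint and 3.59, 5.46, 5.47 and 1.12 CPM in lean midpoint libraries. Neither time contrast of Kdr passed the test, with log2 fold changes of 0.79 ± 0.45 in obese and -0.92 ± 0.50 in lean mice (edgeR adjusted p = 0.121 and 0.160).

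Tie1 (ENSMUSG00000033191; chromosome 4, 118471191 to 118490061), a receptor that modulates angiopoietin signalling, was low throughout. It had 4 to 10 counts in an obese endpoint library and 2 to 14 in a lean endpoint library, against 6 to 42 in an obese midpoint library and 4 to 21 in a lean midpoint library. Its means were 0.129 ± 0.050 CPM in obese endpoint (SD, n = 5), 0.129 ± 0.110 CPM in lean endpoint (SD, n = 4), 0.460 ± 0.261 CPM in obese midpoint (SD, n = 5) and 0.212 ± 0.142 CPM in lean midpoint libraries (SD, n = 4). It fell by 1.82 ± 0.58 at endpoint in obese mice on the log2 scale (edgeR adjusted p = 0.00844); once GC content and length were corrected for, the value was -1.11 (adjusted p = 0.0935). Tek (ENSMUSG00000006386; chromosome 4, 94739289 to 94874976), the angiopoietin receptor itself, had at most 0.111 CPM in an obese endpoint library, 0.182 CPM in a lean endpoint library, 0.046 CPM in an obese midpoint library and 0.038 CPM in a lean midpoint library. Emcn (ENSMUSG00000054690; chromosome 3, 137341067 to 137432185), a sialomucin of venous and capillary endothelium, had at most 0.080, 0.323, 0.292 and 0.367 CPM in libraries of these groups in the same order. Tek was too low to be tested. For Emcn in obese mice the log2 fold change with time was -1.38 ± 1.09 (edgeR adjusted p = 0.259), and -3.45 once GC content and length were corrected for (adjusted p = 0.00859).

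Egfl7 (ENSMUSG00000026921; chromosome 2, 26580014 to 26593120), which encodes a secreted protein of vessel formation, fell in both diets with no overlap between the times. It had 4.30, 5.78, 4.90, 3.58 and 3.48 CPM in obese endpoint and 3.25, 5.33, 2.91 and 4.22 CPM in lean endpoint libraries. It had 7.69, 21.0, 18.5, 9.44 and 10.9 CPM in obese midpoint and 8.94, 7.50, 6.16 and 10.4 CPM in lean midpoint libraries. No endpoint library reached the lowest midpoint library in either diet. Egfl7 fell by 1.61 ± 0.27 in obese mice (edgeR adjusted p = 3.06e-05) and by 1.07 ± 0.30 in lean mice (edgeR adjusted p = 0.0121) on the log2 scale. Once GC content and length were corrected for, the log2 fold change was -0.69 in obese (adjusted p = 0.00207) and -0.67 in lean mice (adjusted p = 0.0174). Its exons share 264 bases with Gm20532, 73 with the microRNA gene Mir126a and 64 on the opposite strand with Agpat2, so its counts are uncertain.

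**Figure D2:**
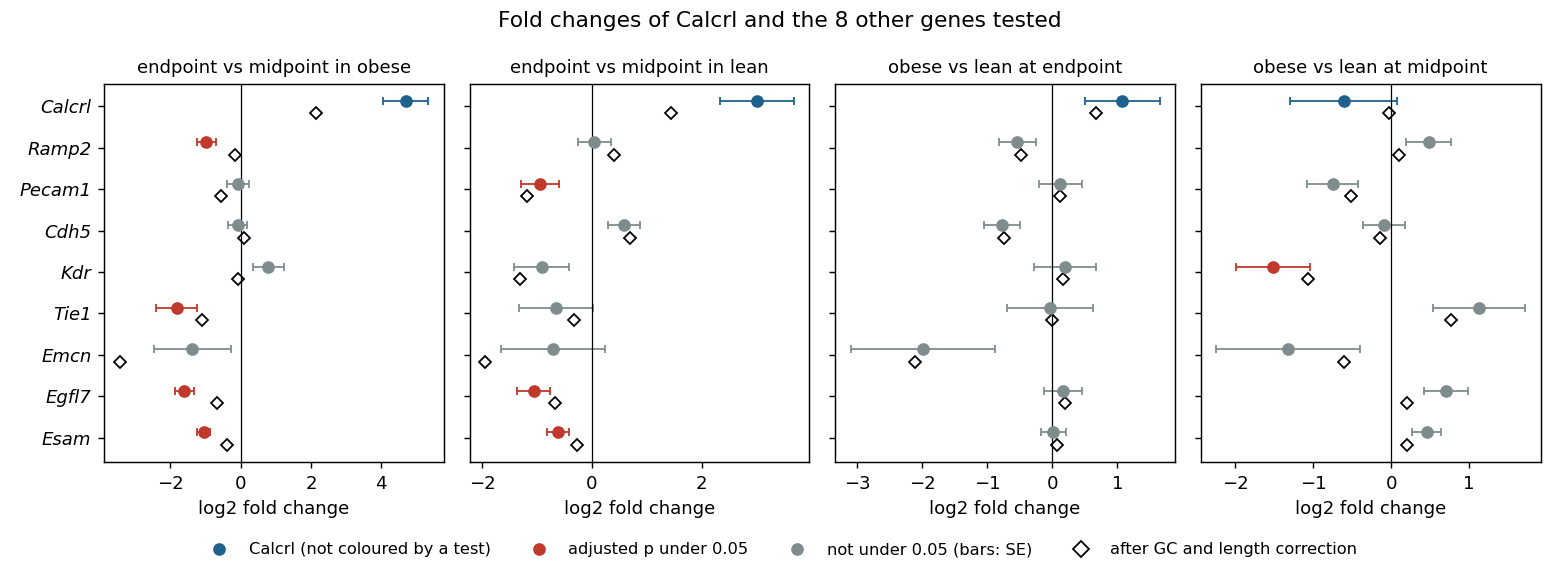
Log2 fold change (horizontal axis) of Calcrl and the 8 other genes tested in 4 contrasts; circles are fitted values with their SE, red where the edgeR adjusted p was under 0.05, blue for Calcrl, and open diamonds are the values once GC content and length were corrected for. Calcrl lies to the right of 0 in both time contrasts, at 4.70 in obese and 3.02 in lean mice, and the genes in red lie to the left.

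Per kilobase of exon, the obese endpoint level of Calcrl was 1.11 CPM, between Egfl7 at 1.23 CPM and Pecam1 at 0.722 CPM, with Ramp2 at 9.34 CPM and Esam at 2.63 CPM above them and Cdh5 (0.512 CPM), Kdr (0.327 CPM), Tie1 (0.0262 CPM), Tek (0.0117 CPM) and Emcn (0.00567 CPM) below. In lean endpoint libraries Calcrl had 0.528 CPM per kilobase, behind Ramp2 (13.6), Esam (2.59), Egfl7 (1.10), Cdh5 (0.872) and Pecam1 (0.664). At midpoint it had 0.0410 CPM per kilobase in obese and 0.0650 CPM per kilobase in lean mice, of the order of Tie1 (0.0935 and 0.0431). In each group the per-kilobase ranges of Calcrl and of the genes next to it in this order overlapped, other than that of Kdr at lean midpoint, which lay above.

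Between diets, Calcrl averaged 5.42 CPM in obese and 2.58 CPM in lean mice at endpoint, a ratio of 2.11, and the groups overlapped. Its log2 fold change was 1.07 ± 0.58, and 0.67 once GC content and length were corrected for. The counts that chose Calcrl enter both diet contrasts, so no test of Calcrl is given for them. At midpoint Calcrl averaged 0.200 CPM in obese and 0.318 CPM in lean mice, and the groups overlapped. The log2 fold change there was -0.61 ± 0.69. This value rests on few counts. Leaving out obese midpoint replicate 4 gave -1.39, and leaving out replicate 5 of that group gave -0.28; leaving out its replicate 2 also moved the value by over 1.5 times. Once GC content and length were corrected for it was -0.03. Under limma-voom with quality weights the midpoint value was -3.15, with 2 obese midpoint libraries at 0 counts.

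At midpoint 1 of the 8 other members, Kdr, was lower in obese mice and 0 were higher, against 29.5% of all genes called, 12.8% lower and 16.7% higher. Kdr averaged 1.37 ± 0.60 CPM in obese mice (SD, n = 5) and 3.91 ± 2.06 CPM in lean mice (SD, n = 4), and fell by 1.51 ± 0.47 on the log2 scale (edgeR adjusted p = 0.0316). The groups overlapped, with lean midpoint replicate 4 at 1.12 CPM. The call was lost without obese midpoint replicate 2 or 3 or lean midpoint replicate 2 or 3 (adjusted p up to 0.129), and once GC content and length were corrected for (log2 fold change -1.07, adjusted p = 0.116). At endpoint 0 of the 8 passed edgeR's test, against 0.00612% of all genes; 1, Cdh5, had an unadjusted p under 0.05 (-0.77 ± 0.27), and neither DESeq2 nor limma-voom called any (0). Averaged over both times 0 of the 8 passed, against 0.00612% of all genes; 3 had an unadjusted p under 0.05. There limma-voom called Tie1 and Pecam1 (2 genes) and DESeq2 none (0).

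Whether the change with time differed between the diets was tested as an interaction. With edgeR 0 of the 8 other members passed, against 0% of all genes, and 2 of the 8, Kdr (1.71 ± 0.68) and Ramp2 (-1.02 ± 0.41), had an unadjusted p under 0.05, as had 5451 of all 16352 genes. DESeq2 called 1 of the 8, Kdr, and limma-voom called 0. Without obese midpoint replicate 1, edgeR called 1 of the 8, Ramp2, and 5656 of all genes. With all 18 libraries a call in one diet alone, such as Ramp2 in obese or Pecam1 in lean mice, was not shown to differ between diets.

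Across the 18 libraries, with each group's mean subtracted from log2 CPM, 0 of the 9 members were correlated with Calcrl at an adjusted p under 0.05 (permutation test within groups, 9 relations). Egfl7 had Pearson's r = -0.58 (permutation p = 0.108, adjusted p = 0.484) and Spearman's rho = -0.56 (permutation p = 0.0668, adjusted p = 0.601). Pecam1 had r = 0.36 (permutation p = 0.0925, adjusted p = 0.484) and rho = 0.30 (permutation p = 0.235, adjusted p = 0.848). Emcn had r = 0.31, Cdh5 r = 0.22, Kdr r = 0.06, Tie1 r = 0.01, Esam r = 0.00, Ramp2 r = -0.21 and Tek r = -0.22, with adjusted permutation p-values from 0.710 to 0.992. All other genes tested had a median r of 0.06 with Calcrl, with an interquartile range of -0.35 to 0.45.

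Without the 2 libraries farthest from the median of Calcrl, obese midpoint replicates 2 and 5, r was -0.67 for Egfl7 and 0.37 for Pecam1. Among the 9 endpoint libraries alone, Egfl7 had r = -0.92 (exact permutation test, adjusted p = 0.0156), and among the 9 midpoint libraries alone r = -0.45. With the first principal component of the libraries taken out, its r was 0.14. It was -0.33 once GC content and length were corrected for. With that component taken out, r was 0.54 for Esam, 0.45 for Ramp2, 0.36 for Tie1, 0.315 for Cdh5 and 0.27 for Emcn. For Pecam1 it was 0.06, for Tek 0.03 and for Kdr -0.11. With the GC and length correction, r was 0.45 for Esam and 0.34 for Cdh5, and from -0.114 to 0.174 for the others tested. No member passed the threshold in either setting. The value for Egfl7 thus differed with the libraries and the scaling used.

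**Figure D3:**
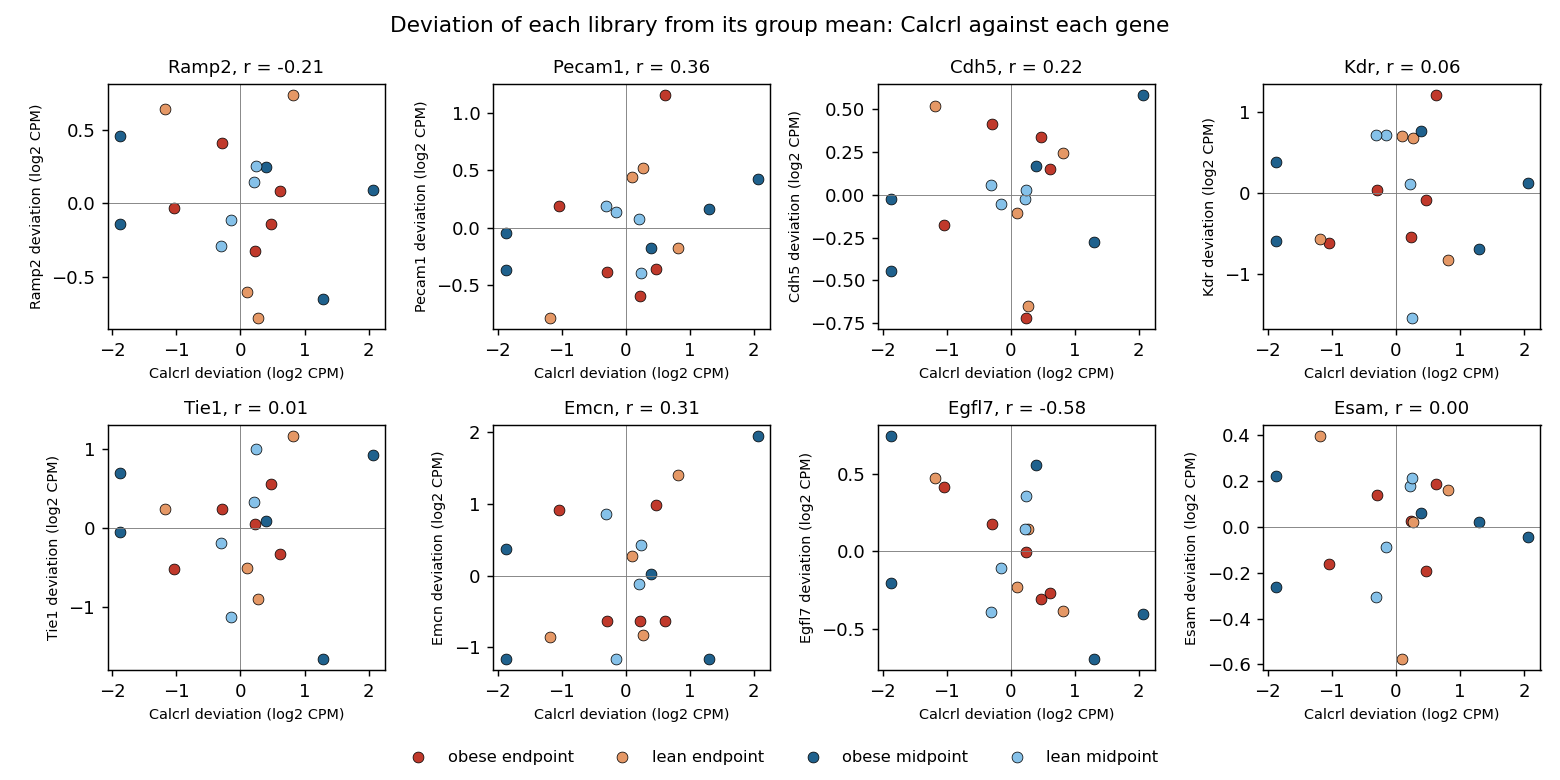
Deviation of each of the 18 libraries from its group mean in log2 CPM, Calcrl on the horizontal and 1 other member on each vertical axis, coloured by group; Tek is not shown. The points of Egfl7 run downward (r = -0.58) and those of Ramp2, Kdr, Tie1 and Esam show r from -0.21 to 0.06.

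Among themselves the endothelial members did not move as 1 block. Ramp2 deviated together with Tek (r = 0.66), Esam (r = 0.65), Tie1 (r = 0.64) and Cdh5 (r = 0.57) over the 18 libraries, and Pecam1 with Kdr (r = 0.64). Ramp2 and Pecam1 had r = -0.46 with each other. These values describe libraries that share depth and base composition trends, and those of Tek, Tie1 and Emcn rest on few counts.

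The genes with deviations most like those of Calcrl, among 10877 genes with a mean of at least 1 CPM, were Tmem263 (r = 0.92), Cpne3 (r = 0.90), Rnf125 (r = 0.90), Zfp429 (r = 0.90), Mbtps2 (r = 0.90), Nkrf (r = 0.89), Zfp654 (r = 0.89) and Dbt (r = 0.89). The least alike were Cyren (r = -0.77), Tmprss9 (r = -0.75), Pcyt2 (r = -0.75) and Tmem42 (r = -0.75). No member of the endothelial lists was among them. The transcripts of the 8 most alike genes had a GC content of 35.8% to 46.7% and those of the 4 least alike 54.0% to 61.0%, beside 37.5% for Calcrl. The part of base composition in these likenesses was not tested.

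For the genes of the further lists, values with the correction for GC content and length are not given. Of 12 further genes of the calcitonin receptor family pathway, 7 passed the filter. Gnas, the stimulatory G protein gene, rose at endpoint in both diets. Its log2 fold change was 0.69 ± 0.22 in obese mice (edgeR adjusted p = 0.00765). In lean mice it was 1.04 ± 0.24 (edgeR adjusted p = 0.0035). Gnas averaged 18.5 CPM in obese endpoint, 16.7 CPM in lean endpoint, 11.5 CPM in obese midpoint and 8.09 CPM in lean midpoint libraries. The other 6 did not pass in either diet. Of all genes tested, 73.9% passed in obese and 30.9% in lean mice. Adm, the gene of adrenomedullin, averaged 131.0 ± 34.7 CPM in obese endpoint (SD, n = 5) and 133.6 ± 72.4 CPM in lean endpoint libraries (SD, n = 4), against 101.9 ± 26.1 CPM in obese midpoint (SD, n = 5) and 81.5 ± 24.6 CPM in lean midpoint libraries (SD, n = 4). Its log2 fold change with time was 0.36 ± 0.28 in obese and 0.71 ± 0.31 in lean mice (edgeR adjusted p = 0.246 and 0.0858). Ramp3, the third RAMP gene, averaged 0.726 CPM in obese endpoint, 0.594 CPM in lean endpoint, 1.08 CPM in obese midpoint and 1.11 CPM in lean midpoint libraries. Ramp1 was at most 0.217 CPM in any library and Calcr, the calcitonin receptor gene, at most 0.081 CPM. Ackr3, a scavenging receptor for adrenomedullin, had log2 fold changes of -0.11 ± 0.23 in obese and -0.30 ± 0.25 in lean mice and did not pass.

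Of 26 further endothelial genes, Cldn5, Erg, Sox17, Sox18, Clec14a, Myct1, Adgrl4 and Selp did not pass the filter. Each was at most 0.603 CPM in any library. Cldn5 reached at most 0.227 CPM, Erg 0.161 CPM, Sox18 0.146 CPM and Clec14a 0.0404 CPM. The other 18 passed the filter. At endpoint in obese mice 10 fell and 2 rose, so that 12 of 18 passed the test against 73.9% of all genes, with a median log2 fold change of -1.20 beside -0.0015 over all genes; in lean mice 4 fell and 1 rose, against 30.9% of all genes called, with a median of -0.34 beside 0.036. Sele, the E-selectin of activated endothelium, was the one that rose in both diets. It averaged 140.3 ± 39.4 CPM in obese endpoint (SD, n = 5) and 111.6 ± 50.2 CPM in lean endpoint libraries (SD, n = 4), against 17.5 ± 2.2 CPM in obese midpoint (SD, n = 5) and 32.4 ± 10.1 CPM in lean midpoint libraries (SD, n = 4). Its log2 fold change was 3.00 ± 0.28 in obese mice (edgeR adjusted p = 2.88e-07) and 1.79 ± 0.30 in lean mice (edgeR adjusted p = 0.000386). As for Calcrl, every endpoint library lay above every midpoint library, at 57.3 CPM or more against at most 40.9 CPM. With group means subtracted, the r of Sele with Calcrl was 0.04.

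Eng, the endoglin co-receptor for TGF-beta family ligands, fell in both diets. It averaged 98.2 CPM in obese endpoint and 92.1 CPM in lean endpoint libraries, against 263.4 CPM in obese midpoint and 157.3 CPM in lean midpoint libraries. Plvap, the diaphragm protein of fenestrated endothelium, fell by 1.98 ± 0.37 in obese mice (edgeR adjusted p = 8.21e-05) and by 1.11 ± 0.42 in lean mice (edgeR adjusted p = 0.0479). Ecscr, a regulator of endothelial migration, fell by 1.23 ± 0.23 in obese mice (edgeR adjusted p = 9.29e-05). S1pr1, a sphingosine 1-phosphate receptor chosen here after its values were seen, rose by 1.79 ± 0.61 in obese mice (edgeR adjusted p = 0.0131). Over the 18 libraries the 18 further endothelial genes had a median r of 0.00 with Calcrl after group means were subtracted, from -0.47 for Icam2 to 0.55 for Flt1.

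Of 5 lymphatic endothelial genes 2 passed the filter. Lyve1, a hyaluronan receptor of lymphatic endothelium and some macrophages, rose by 4.08 ± 0.63 at endpoint in obese mice (edgeR adjusted p = 1.29e-05) and by 1.62 ± 0.57 in lean mice (edgeR adjusted p = 0.0369). It averaged 0.959 CPM in obese endpoint and 1.16 CPM in lean endpoint libraries, against 0.0536 CPM in obese midpoint and 0.372 CPM in lean midpoint libraries. Pdpn, podoplanin, rose by 1.51 ± 0.41 in obese mice (edgeR adjusted p = 0.00264) and had a log2 fold change of 0.61 ± 0.45 in lean mice. Of all genes tested, 37.8% rose with time in obese and 21.4% in lean mice. At midpoint both genes were lower in obese than in lean mice. The log2 fold changes were -2.72 ± 0.66 for Lyve1 and -1.26 ± 0.43 for Pdpn (edgeR adjusted p = 0.0305 and 0.0374). In that contrast 29.5% of all genes tested were called and 12.8% were lower. The defining lymphatic markers Ccl21a and Mmrn1 were at 0 in every library and Prox1 was at most 0.0398 CPM.

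Of 11 angiogenic ligand genes 9 passed the filter. At endpoint 3 rose and 3 fell in obese mice, and 2 rose and 0 fell in lean mice. Of all genes 37.8% rose and 36.1% fell in obese mice, and 21.4% rose and 9.5% fell in lean mice. Vegfc, the ligand best known for lymphatic vessel growth, rose by 3.20 ± 0.36 in obese mice (edgeR adjusted p = 5.96e-07) and by 2.44 ± 0.37 in lean mice (edgeR adjusted p = 0.000257). Vegfa, the ligand of the Kdr receptor, rose by 1.54 ± 0.22 in obese mice (edgeR adjusted p = 6.36e-06) and by 0.72 ± 0.24 in lean mice (edgeR adjusted p = 0.0323). Vegfb fell by 1.56 ± 0.26 in obese mice (edgeR adjusted p = 2.67e-05). 

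Markers of other cells that a sorted sample could hold also differed with time, and their part in the Calcrl values was not tested. Their counts stand beside 73.9% of all genes called in obese mice and 30.9% in lean mice. Of 9 fibroblast markers, 5 rose and 3 fell in obese mice and 4 rose and 3 fell in lean mice. The log2 fold changes that follow are given for obese and then lean mice. Dcn (5.29 ± 0.56 and 3.96 ± 0.59) and Lum (5.40 ± 0.64 and 4.14 ± 0.68) rose, whereas the collagen genes Col1a1 (-1.89 ± 0.39 and -2.66 ± 0.46) and Col1a2 fell. Every endpoint library lay above every midpoint library for Dcn, Lum and Pdgfra, as it did for Calcrl, and Col1a1, Col1a2 and Thy1 separated the times in both diets the other way. Pdgfra averaged 355.3 CPM in obese endpoint and 423.8 CPM in lean endpoint libraries, against 128.0 CPM in obese midpoint and 255.2 CPM in lean midpoint libraries. The summed level of the 9 was mostly Col3a1, which averaged 1847 CPM in obese endpoint and 1401 CPM in lean endpoint libraries, against 1538 CPM in obese midpoint and 1790 CPM in lean midpoint libraries. The sum was 1645 to 2773 CPM in obese endpoint and 1569 to 2376 CPM in lean endpoint libraries, against 980.2 to 2523 CPM in obese midpoint and 1921 to 2266 CPM in lean midpoint libraries. Of 14 leukocyte and macrophage markers, 4 rose and 2 fell in obese mice, and 1 rose and 4 fell in lean mice, with median log2 fold changes of -0.28 in obese and -0.92 in lean mice. Ptprc (CD45) rose by 3.42 ± 0.50 in obese mice and had a log2 fold change of 0.97 ± 0.51 in lean mice. Mrc1, a macrophage mannose receptor, was higher in every endpoint than in every midpoint library of each diet. Their summed level was 129.7 to 696.3 CPM in obese endpoint and 209.6 to 301.9 CPM in lean endpoint libraries, against 186.2 to 442.8 CPM in obese midpoint and 246.6 to 528.8 CPM in lean midpoint libraries. Neither of these 2 sums separated the times in either diet, and no marker of the 2 lists was at 0 in every library of a group. With group means subtracted, the fibroblast markers had a median r of -0.03 with Calcrl over the 18 libraries, with Lum (r = 0.63), Pdgfra (r = 0.58) and Dcn (r = 0.45) at the top and Col3a1 (r = -0.21) lowest. The leukocyte and macrophage markers had a median r of 0.07, from -0.16 for Coro1a to 0.56 for Ptprc. These are descriptions, beside an interquartile range of -0.35 to 0.45 over all genes.

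Of all genes tested, 37.8% rose and 36.1% fell in obese mice, and 21.4% rose and 9.5% fell in lean mice. The counts below stand beside these shares. Of 8 pericyte markers 6 passed the filter, of which 3 fell in obese mice and 1 in lean mice, and 0 rose. Their summed level, nearly all from Pdgfrb, was 80.3 to 140.4 CPM in obese endpoint and 86.0 to 156.9 CPM in lean endpoint libraries, against 118.4 to 346.2 CPM in obese midpoint and 152.7 to 245.4 CPM in lean midpoint libraries. Of 6 platelet and megakaryocyte markers 3 passed and 1, Ppbp, rose in both diets (2.80 ± 0.66 in obese and 2.15 ± 0.69 in lean mice); their sum was 5.96 to 28.3 CPM in obese endpoint and 6.73 to 31.2 CPM in lean endpoint libraries, against 5.80 to 10.95 CPM in obese midpoint and 5.95 to 14.1 CPM in lean midpoint libraries. Of 6 erythroid markers 5 passed, and 2 rose in obese and 0 in lean mice, with sums of at most 15.1 CPM in any library. Of 6 adipocyte markers 2 passed, of which Fabp4 rose (1.77 ± 0.34 in obese and 2.50 ± 0.39 in lean mice) and Plin1 fell in both diets, to 0 in every lean endpoint library. The summed level of the 6 was 10.7 to 17.7 CPM in obese endpoint and 18.95 to 80.04 CPM in lean endpoint libraries, against 3.97 to 8.31 CPM in obese midpoint and 5.46 to 9.72 CPM in lean midpoint libraries, so that, like Calcrl, it separated the times in both diets. Most of it was Fabp4, which averaged 13.8 CPM in obese endpoint and 40.7 CPM in lean endpoint libraries, against 4.02 CPM in obese midpoint and 7.19 CPM in lean midpoint libraries. Fabp4 is a fatty acid binding protein gene that capillary endothelium and macrophages also express. The defining adipocyte markers Adipoq, Lep and Cidec were each at most 0.0975 CPM in any library. The part of this list in the Calcrl values was not tested. Of 5 epithelial markers, Krt8 alone passed the filter, and it fell by 1.19 ± 0.20 in obese mice; its deviations had r = -0.60 with those of Calcrl.

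**Figure D4:**
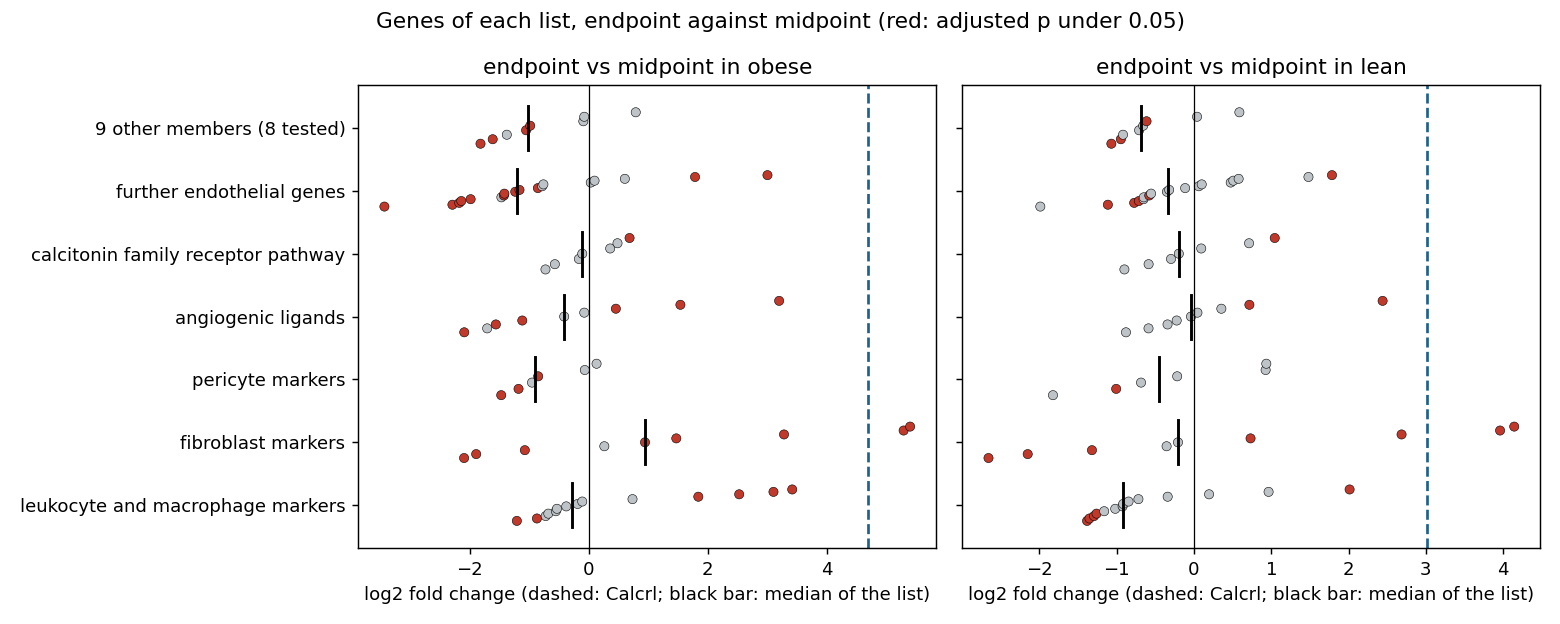
Log2 fold change of endpoint against midpoint (horizontal axis) for the genes of 7 lists, obese mice on the left and lean mice on the right; each dot is a gene, red where the edgeR adjusted p was under 0.05, the black bar is the list's median and the dashed line is Calcrl. The other members have medians of -1.02 in obese and -0.68 in lean mice, while Calcrl stands at 4.70 and 3.02.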

How the data were processed

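RNA was sequenced from sorted E0771 tumor cells of 19 tumors. The authors deposited whole-number counts per gene, not normalized, with a Length column in bases; per the submitters' processing notes TopHat, DESeq and the build mm10 were used, and no source used here names the counter, the annotation or the strand setting. Symbols were matched by Ensembl identifier to the GENCODE annotation for 37607 of 39017 genes. Counts of genes whose exons overlap others are uncertain.

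Genes were kept by filterByExpr (16352 genes), libraries scaled by TMM, and a mean per group fitted to 18 libraries with edgeR 4.0.16 in R 4.3.3. Contrasts were tested by the quasi-likelihood test with Benjamini-Hochberg adjustment over all genes at 0.05. The fit was tested on simulated data. CPM were computed here from the deposited counts; log2 CPM used a prior count of 2. Correlations with Calcrl used deviations from group means and 100000 permutations within groups. Alternatives were RLE scaling, limma-voom (3.58.1), DESeq2 1.42.0, no filter, 1 CPM required in 4 libraries, only the groups compared, the replicate number as a block, all 19 libraries, chromosomes 1 to 4 with all 19, a correction for GC content and length by splines (98.6% of genes had both), and each library left out; the fit without lean endpoint replicate 1 was singled out after seeing the data.

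The genes and lists were chosen with earlier results of these data known. The genes named are the 10 members, up to 4 genes with the smallest p of each further list in the contrasts described, and the 8 genes most and 4 least correlated with Calcrl. Further genes whose levels are quoted (Krt18, Epcam, Cdh1, Ramp1, Calcr, Ackr3, Flt1, Adipoq, Lep, Cidec, Ccl21a, Mmrn1, Prox1, Pdgfra, Col3a1, Thy1, Mrc1, Coro1a) were chosen after their values were seen. The further endothelial genes that did not pass the filter are also named. No library repeated another of its group: over 32 pairs the chi-square per degree of freedom was at least 35.7.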

Additional observations from a re-analysis of the deposited data

Results flagged for a closer look

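Of 40 groups of values (10 genes in 4 groups), 3 had a library far from the others of its group. The rule used flags about 1 in 20 groups by chance where values are normally distributed. That rate need not hold for genes near 0, such as Tek and Emcn. Kdr had 4.95 CPM in obese endpoint replicate 4, against 1.37 to 2.16 CPM in the other 4. That library also had the highest Pecam1 level of its group, 9.04 CPM. Tek had 0.0463 CPM (2 counts) in obese midpoint replicate 2, the only one of the 5 libraries with a count. Emcn had 0.292 CPM in obese midpoint replicate 4, against at most 0.0722 CPM in the other 4.

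Lean endpoint replicate 4, which entered only the alternative fits with all 19 libraries, had 109 counts of Calcrl, a gene in the part of the genome that it covers. On a CPM scale made from chromosomes 1 to 4 alone that is 9.97 CPM, against 1.31 to 1.98 CPM in the 4 lean midpoint libraries. The other 4 lean endpoint libraries had 5.24 to 19.8 CPM on that scale.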

How the results depend on the processing

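The number of the 8 other members past the threshold was 1 for obese against lean at midpoint; it was 3 with DESeq2, 5 with limma-voom, and 0 with only the groups compared, with the GC and length correction and with all 19 libraries, and ranged from 0 to 3 with 1 library left out. For the average over both times it was 0, and 2 with limma-voom; for the interaction 0, and 1 with DESeq2, with a range of 0 to 1 (Ramp2, without obese midpoint replicate 1). For endpoint against midpoint it was 3 in lean mice, 1 with the replicate block (Egfl7; Pecam1 had an adjusted p of 0.0768 and Esam of 0.0900) and 0 with all 19 libraries, with a range of 1 to 3; with only the groups compared and with the GC and length correction it was 2, without Esam. In obese mice it was 4, and 2 with all 19; it was 3 with the GC and length correction, which dropped Ramp2 and Tie1 and added Emcn, 5 with limma-voom, which added Emcn, and 3 with only the groups compared or the stricter filter, where Tie1 was not tested. The library with zeros beyond chromosome 5 adds spread to every gene there; on chromosomes 1 to 4 alone, the fit with all 19 called Egfl7 in both diets. Members correlated with Calcrl were 0, and 1 among endpoint libraries alone. The cause of the other differences was not tested.

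Genes called among all 16352 ranged from 0 to 8458 at midpoint (4825 as reported), 0 to 13 at endpoint (1), 0 to 4831 for the average (1), 0 to 5656 for the interaction (0; the highest without obese midpoint replicate 1), 530 to 7315 in lean mice (5053) and 4213 to 12717 in obese mice (12091). No member's fold change among 1446 recomputed values reversed after being called; 30 lost and 20 gained a call. Of 24 pairs of same-numbered libraries from different groups, 6 had a correlation over 0.1, with a range of -0.40 to 0.55. Libraries with different numbers were not compared, so whether replicate numbers pair the samples was not tested. Apart from the lean time contrast, the block moved no count of members. Depth limits Tek, Tie1 and Emcn most, with 0 to 42 counts in a library.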
